A study of Homo sapiens with 16 samples.

Results

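The transcript response of A549 cells 4 h after X-rays was read from the 4 arrays titled for that exposure and time, out of 16 arrays in the series. A549 is an established human lung adenocarcinoma line. On each array the RNA of an irradiated plate, exposed to megavolt photons from a clinical linear accelerator, was hybridised against the RNA of the control plate of the same culture, collected at the same time. The dyes were exchanged between arrays: the irradiated plate was labelled with Cy5 on replicates 1 and 4 and with Cy3 on replicates 2 and 3. A further 4 arrays 1 h after X-rays and 4 arrays 4 h after carbon ions (C12), each again irradiated against control plates of A549, served for comparison. All groups share the parental line and its medium, and no group carries a genetic change or a drug. No source used here gives the radiation dose of these samples.

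Ionising radiation breaks DNA, and the kinases that sense the breaks stabilise the transcription factor p53, which A549 cells are known to carry in its wild-type form. p53 switches on inhibitors of the cell cycle, repair factors, death receptors and its own inhibitors. After such damage, cells with wild-type p53 are known to lower transcripts of many kinases, cyclins and spindle proteins of G2 and mitosis. Many promoters of these genes carry an element called CHR and CCAAT boxes bound by NF-Y.

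The deposited values are ratios of one dye over the other, taken to be on the log2 scale, with no signal level for either plate. Levels of lung or other cell type markers could therefore not be examined, and a lower ratio in bulk RNA cannot tell fewer cells of one kind, such as cells in mitosis, from less RNA per cell. The labels did not settle which way the ratios run. Values of replicates 1 and 2 were multiplied by -1, which follows from the labelled dyes under one likely reading of the deposit and makes the known p53 targets positive. Every rise and fall below is stated under that reading, and with the opposite sign 3 genes would have risen and 38 fallen. With ratios as deposited, or turned by the labelled dye alone, 0 genes passed in either direction. The labelled dye alone gave the p53 targets a median of -0.0081 and the mitotic genes one of 0.14. Since the p53 targets entered this choice, their direction is a description and supports nothing. The same signs set replicates 1 and 2 against replicates 3 and 4, so a constant difference between those pairs of deposited arrays cannot be told apart from a response. The labels describe independent cultures but also pooling of RNA from separate experiments, and the p-values measure the spread between these arrays.

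The 4 arrays resembled each other little across the 18334 genes measured. Replicates 1 and 4 correlated with r = 0.40 across genes, while replicate 2 gave r = -0.24 with replicate 1, -0.17 with replicate 3 and -0.15 with replicate 4. These coefficients describe genes of the same arrays and count no independent points. Replicate 2 also had the widest residual spread in the model, an SD of 0.39 on the log2 scale, against 0.24 to 0.28 on the other 3 arrays. Read as Cy5 over Cy3, its ratios ran against the mean dye pattern of the C12 arrays at 4 h (r = -0.62), whereas those of replicate 3 ran with it (r = 0.51) and those of replicates 1 and 4 did neither (r = 0.09 and -0.04).

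Several gene groups moved with the dye or with single arrays. The 64 ribosomal protein genes had array medians of 0.71, -0.40, -0.81 and 0.42 on replicates 1 to 4, positive where the irradiated plate carried Cy5 and negative where it carried Cy3. Their median dye coefficient was 0.59, and 42 of the 64 passed for the dye, all with a positive coefficient. Of all 18334 genes, 285 passed for the dye with a positive coefficient (1.55%) and 148 with a negative one (0.807%). The 21 housekeeping genes had medians of 0.42, 0.19, -0.60 and 0.32, low on replicate 3 alone. For the exposure, 0 of 64 ribosomal and 0 of 21 housekeeping genes passed, with medians of -0.04 and 0.03. GAPDH, the glycolytic enzyme often used as a loading standard, had ratios of 0.90, -0.70, -0.81 and 0.64 on replicates 1 to 4, with an SD of 0.89. Its mean was 0.01 ± 0.14 (SE, n = 4). This SE comes from the model of the X-ray arrays with its dye coefficient, not from the 4 values alone. Values given with ± below are likewise model estimates. ACTB, which encodes cytoplasmic actin, had 0.87, -0.07, -0.44 and 0.47 and a mean of 0.21 ± 0.15. Both genes thus spread over a range wider than the changes of most genes that passed.

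**Figure D1:**
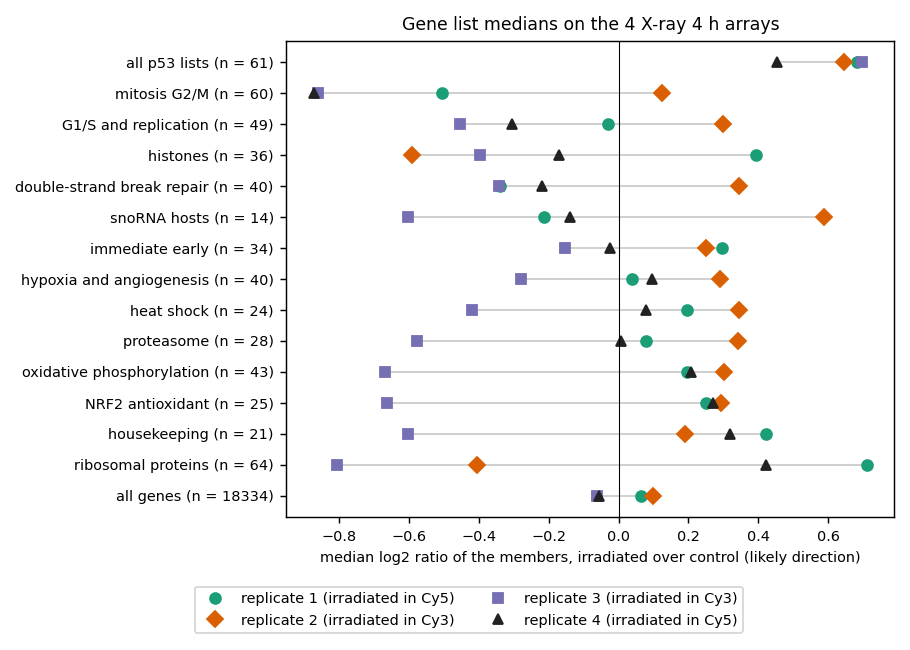
Median log2 ratio (irradiated over control, likely direction, x axis) of the members of each gene list on each of the 4 X-ray 4 h arrays (symbols), with the number of measured genes beside the list name. The pooled 61 p53 targets lie at 0.45 to 0.70 on all 4 arrays, the mitotic genes lie below 0 on replicates 1, 3 and 4 and at 0.13 on replicate 2, and ribosomal proteins change side with the dye.

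With all 8 X-ray arrays in one model that held a dye coefficient, 38 genes rose and 3 fell at the 4 h time point at a Benjamini-Hochberg adjusted p under 0.05 in limma. These are 0.207% and 0.0164% of the 18334 genes tested. With limma's array weights the balance turned to 348 higher and 810 lower genes. Those weights were 0.83, 0.27, 4.84 and 1.34 on replicates 1 to 4, so this fit leaned mostly on replicate 3. At an unadjusted p under 0.05 there were 747 genes, or 4.07%, a share below the threshold itself. The genes that rose include the arrest gene CDKN1A, the secreted factor GDF15, the nuclear protein gene TP53INP1 and the ceramidase gene ACER2, and the 3 that fell, CKS2, PSRC1 and PLK1, all act in mitosis. The smallest rise among the 38 was 0.76 on the log2 scale, in COQ8A.

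Of the 61 p53 targets measured, 18 rose, 0 fell and 43 did not pass, with a median change of 0.51, against 0.00 over all genes. The array medians of these 61 were 0.68, 0.65, 0.70 and 0.45, so replicate 2 did not stand apart here. A total of 36 of the 61 were positive on all 4 arrays (59.0%), as were 5.14% of all genes. The list was compiled with earlier results of these arrays known and its members fixed the sign, so these counts describe the genes and test nothing.

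Arrest and growth genes held the most members that rose, 7 of 12 measured, with a median of 0.86. CDKN1A, which encodes p21, the inhibitor of cyclin-dependent kinases, had log2 ratios of 2.09, 1.10, 1.29 and 1.32 on replicates 1 to 4. Replicate 1 was the highest and the other 3 lay close together. It rose 2.73-fold (log2 1.45 ± 0.16, SE, n = 4, limma adjusted p = 0.0015), and all 11 of its features were positive, between 1.04 and 1.75. PLK3, a stress-responsive polo-like kinase, had 1.41, 1.06, 1.41 and 1.28 and rose by 1.29 ± 0.17 (adjusted p = 0.0069). GADD45A, a sensor of genotoxic stress that binds PCNA and p21, had 1.02, 1.13, 1.11 and 1.22 and rose by 1.12 ± 0.21 (adjusted p = 0.043). Its 4 values lay closer together than those of CDKN1A, while its 1 h arrays, which share the model's error, ran between 1.06 and 2.64. SERTAD1, a regulator of the kinase CDK4, had 1.26, 0.65, 1.06 and 0.97, and SESN2, a stress-induced inhibitor of mTORC1 signalling, had 0.96, 0.62, 0.95 and 0.91. In both genes replicate 2 was the lowest. SERTAD1 rose by 0.99 ± 0.15 (adjusted p = 0.013), SESN2 by 0.86 ± 0.14 (0.028), its relative SESN1 by 0.92 ± 0.17 (0.044) and the membrane protein gene NINJ1 by 0.87 ± 0.15 (0.035). CCNG1, a cyclin that p53 induces and that feeds back on it, had -0.43, 0.88, 0.74 and -0.20 and did not pass (0.25 ± 0.24). Its values split by dye, positive where the irradiated plate carried Cy3.

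Among the genes of metabolism and secretion, 3 of 21 passed and the median was 0.34. GDF15, a stress-induced cytokine of the TGF-beta family, had log2 ratios of 2.01, 0.74, 1.28 and 2.93, the widest spread among the genes that rose. Replicates 1 and 4, with the irradiated plate in Cy5, were the higher pair, and the gene also passed for the dye (coefficient 0.59 ± 0.13, limma adjusted p = 0.025). GDF15, measured by 1 feature, rose 3.34-fold (log2 1.74 ± 0.18, adjusted p = 0.0011). ACER2, a Golgi ceramidase that makes sphingosine, had 1.03, 1.52, 1.58 and 1.505 and rose 2.65-fold (log2 1.41 ± 0.15, adjusted p = 0.0011). Replicate 1 was the low array for ACER2, apart from 3 values that nearly coincided. TIGAR, which lowers glycolytic flux and oxidative stress, had 0.78, 0.81, 1.05 and 1.05 and rose by 0.92 ± 0.16 (adjusted p = 0.030).

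Feedback genes of p53 gave 3 of 8 that rose, with a median of 0.50. TP53INP1, which promotes p53 phosphorylation and autophagy, had 0.96, 1.26, 1.92 and 2.50 and rose 3.17-fold (log2 1.66 ± 0.21, adjusted p = 0.0054). PPM1D, which encodes the WIP1 phosphatase that shuts down damage signalling, had 0.95, 0.93, 1.18 and 1.20 and rose by 1.07 ± 0.15 (adjusted p = 0.0098). PHLDA3, an inhibitor of AKT, had 1.27, 0.87, 1.13 and 1.06 and rose by 1.08 ± 0.16 (adjusted p = 0.013). PPM1D and PHLDA3 varied little between arrays, while TP53INP1 was higher on replicates 3 and 4 than on replicates 1 and 2. MDM2, the ubiquitin ligase that degrades p53, had 0.38, 0.09, 0.80 and 0.45 and did not pass (0.43 ± 0.16, adjusted p = 0.85). Its 11 features were all positive but ranged widely, between 0.22 and 1.15, so the average over features hides unequal probes.

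Repair and death genes rose by less than GDF15 or CDKN1A. XPC, which recognises damaged bases for nucleotide excision repair, had 1.00, 0.98, 1.08 and 1.05, and DDB2, which works at the same step, had 1.00, 0.73, 0.95 and 1.08. XPC was nearly constant over the 4 arrays. XPC rose by 1.03 ± 0.17 (adjusted p = 0.029) and DDB2 by 0.94 ± 0.15 (0.015), and they were the 2 of 7 repair targets that passed, with a median of 0.65 for the 7. Of the 14 death genes, 3 rose and the median was 0.55. The death receptor genes TNFRSF10B, with 0.99, 0.80, 0.79 and 0.98, and FAS, with 0.80, 0.87, 1.12 and 0.71, rose by 0.89 ± 0.15 (adjusted p = 0.028) and 0.87 ± 0.15 (0.030). BBC3, which encodes the BH3-only protein PUMA, had 1.19, 0.08, 0.68 and 1.30 and rose by 0.81 ± 0.15 with an adjusted p of 0.0498. Its value on replicate 2 was near 0, and 1 of its 3 features had a negative mean (-0.19, against 1.66 for the highest), so its features disagree.

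**Figure D2:**
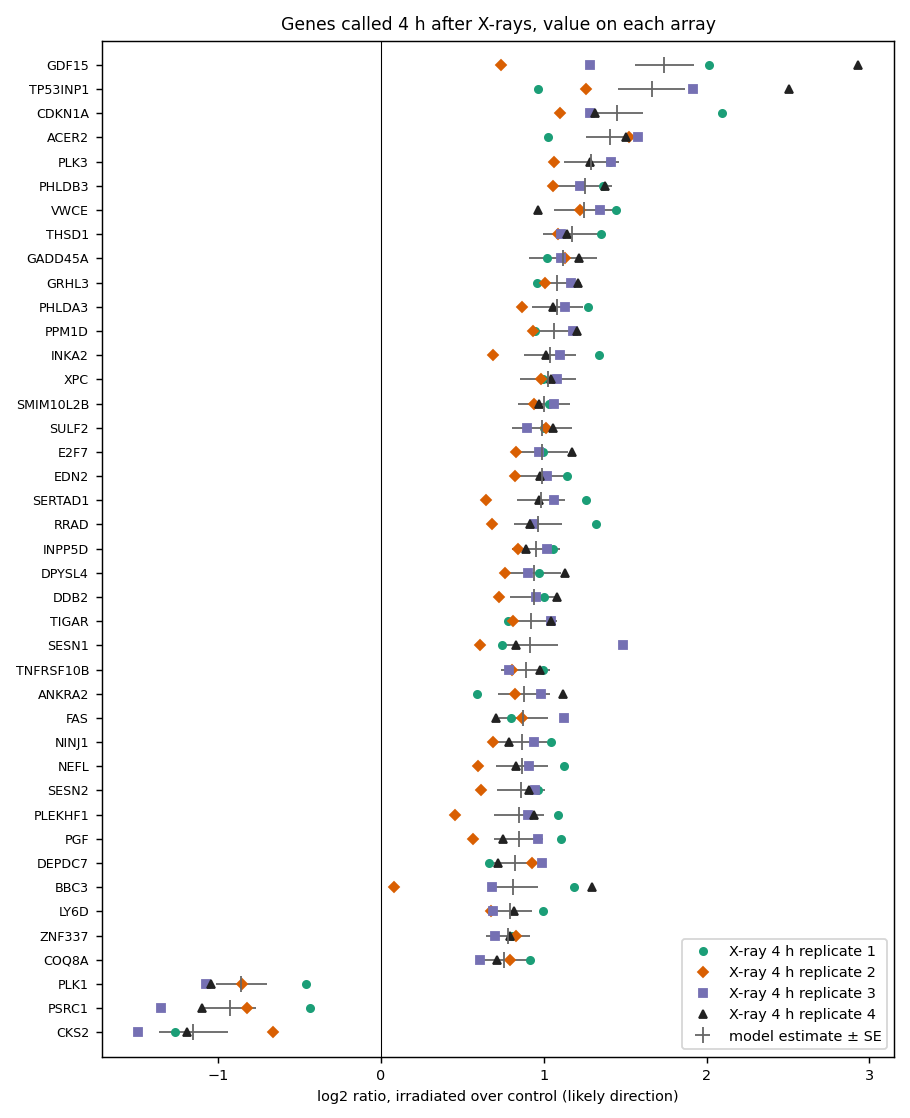
Log2 ratio (irradiated over control, likely direction, x axis) of the 38 genes that rose and the 3 that fell 4 h after X-rays, with 1 symbol per array and the model estimate ± SE as a grey cross. Most genes that rose lie between 0.5 and 1.5 on every array, GDF15 and TP53INP1 spread most, and BBC3 is near 0 on replicate 2.

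Another 19 of the 38 genes that rose belong to none of the 24 gene lists examined, and a further one, PGF, to the hypoxia and angiogenesis list only. PHLDB3, a pleckstrin homology domain protein, had 1.36, 1.06, 1.22 and 1.38 and rose 2.39-fold (log2 1.25 ± 0.17, adjusted p = 0.0069). GRHL3, a transcription factor of epithelial barrier formation, had 0.96, 1.01, 1.17 and 1.21 and rose by 1.08 ± 0.15 (adjusted p = 0.0069). All 4 arrays of both genes lay well above 0, with replicate 2 no outlier, as their choice from a fit that held replicate 2 favours. VWCE, a secreted protein with von Willebrand factor C domains, had 1.45, 1.22, 1.34 and 0.97 and rose by 1.25 ± 0.18 (adjusted p = 0.013). THSD1, a thrombospondin domain protein of endothelial adhesion, had 1.35, 1.09, 1.11 and 1.14 and rose by 1.17 ± 0.18 (0.013). INKA2, an inhibitor of the kinase PAK4, had 1.34, 0.69, 1.10 and 1.01 and rose by 1.04 ± 0.16 (0.014), replicate 2 being the lowest.

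Signalling and cell cycle regulators were among the same 19 genes. E2F7, a repressor of E2F target genes, had 0.99, 0.83, 0.97 and 1.17 and rose by 0.99 ± 0.16 (adjusted p = 0.015). EDN2, the vasoactive peptide endothelin 2, had 1.14, 0.83, 1.02 and 0.97 and rose by 0.99 ± 0.15 (0.013). INPP5D, the inositol phosphatase SHIP1 best known from blood cells, had 1.06, 0.84, 1.02 and 0.89 and rose by 0.95 ± 0.15 (0.014). The values of these 3 genes stayed within a narrow band on all arrays, and each rests on 1 feature. RRAD, a small GTPase of the RAS family, had 1.32, 0.68, 0.94 and 0.92 and rose by 0.96 ± 0.14 (0.013). The heparan sulfate sulfatase gene SULF2 rose by 0.99 ± 0.18 (0.043) and the small membrane protein gene SMIM10L2B by 1.00 ± 0.16 (0.017). The others of the 19, such as PLEKHF1, LY6D, ZNF337, ANKRA2 and COQ8A, rose by 0.76 to 0.94. PGF, the placental growth factor of the VEGF family, had 1.10, 0.57, 0.96 and 0.75 and rose by 0.85 ± 0.15 (0.031). It was the 1 of 40 hypoxia and angiogenesis genes that passed, and the list's median was 0.03. VEGFA, the main angiogenic factor of that list, had 0.46, 0.01, -0.36 and -0.10 with a mean of 0.00 ± 0.15. HIF1A, the oxygen-regulated subunit of the hypoxia factor, had -0.66, 0.86, -0.61 and -0.21, with replicate 2 opposite to the other 3 arrays, and a mean of -0.15 ± 0.27. In all, 27 of the 38 genes that rose were measured by 1 feature, so that no second probe stands beside them.

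Fewer of the 38 passed when an array of the 4 h group was left out. Without replicate 1, 4 of the 38 remained (ACER2, CDKN1A, GDF15 and TP53INP1), and without replicate 3 the count was 3 (ACER2, CDKN1A and GDF15). Without replicate 4, 7 remained, adding PLK3, THSD1, TP53INP1 and VWCE to those 3. Without replicate 2, 19 remained, although that array differed most from the others. ACER2, CDKN1A and GDF15 were the 3 genes that passed in each of the fits that left out 1 of the 8 X-ray arrays. None of the 19 genes outside the lists passed without replicate 1 (lowest adjusted p = 0.071) or without replicate 3 (0.14), 8 did without replicate 2, and THSD1 and VWCE did without replicate 4. Leaving out an array of the 1 h group, which lends its spread to the model, gave 22 of the 38 at the lowest.

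The 3 genes that fell encode mitotic proteins. CKS2, the small subunit that docks cyclin-dependent kinases to their substrates, had -1.26, -0.66, -1.49 and -1.19 and fell to 0.45 of the control level (log2 -1.15 ± 0.21, SE, n = 4, limma adjusted p = 0.042). PSRC1, a microtubule regulator of the spindle, had -0.43, -0.82, -1.35 and -1.09 and a log2 change of -0.93 ± 0.16 (adjusted p = 0.030). PLK1, the polo-like kinase that drives entry into mitosis, had -0.46, -0.85, -1.07 and -1.04 and a change of -0.86 ± 0.16 (adjusted p = 0.043). All 12 values were negative, lowest on replicate 3 in each gene, and here replicate 2 ran with the others. The 3 genes were picked by a fit that held replicate 2, which favours genes where it agrees, so this is a description. None of the 3 passed without replicate 1 (adjusted p between 0.14 and 0.38), replicate 3 (0.47 to 0.54) or replicate 4 (0.23 to 0.46), and PSRC1 alone passed without replicate 2 (0.037).

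The next genes by p among those with negative means did not pass. CCNB1, the cyclin of the mitotic kinase, had -0.52, -0.83, -1.14 and -0.85 with a mean of -0.83 ± 0.17 (adjusted p = 0.072). CCNA2, the S and G2 cyclin, had -0.58, -0.65, -1.01 and -0.73 with a mean of -0.74 ± 0.15 (0.072), and all 10 of its features were negative. CDC20, an activator of the anaphase-promoting complex, had -0.41, -0.84, -0.94 and -0.78 with a mean of -0.74 ± 0.16 (0.11). In these cyclins and in CDC20 all arrays were negative and replicate 1 was nearest to 0. The kinase gene AURKA, the phosphatase gene CDC25C, the motor gene KIFC1 (outside the mitotic list) and the passenger complex gene CDCA8 had means of -0.74, -0.72, -0.70 and -0.86 (adjusted p between 0.16 and 0.19). CENPA, the centromeric histone, had -1.003, 0.04, -1.20 and -1.68, a mean of -0.96 ± 0.24 (0.24), with replicate 2 near 0. SNHG7, a small nucleolar RNA host gene outside the mitotic list, had -0.52, -0.88, -1.01 and -0.49 and a mean of -0.73 ± 0.15 (0.071).

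Over the 60 mitotic G2/M genes measured, 3 fell, 0 rose and 57 did not pass, and the median was -0.54. All 60 had a negative mean, as did 49.7% of all genes. The array medians were -0.51, 0.13, -0.86 and -0.87, so the list lay below 0 on 3 arrays and slightly above it on replicate 2. On replicates 1, 3 and 4 together, 49 of the 60 were negative on every array (81.7%, against 17.8% of all genes), while 17 of 60 were negative on all 4 (28.3%, against 2.9%). This list too was compiled with earlier results of these arrays known, so these counts describe the genes and test nothing. On replicate 2 the members ran continuously between -0.85 and 0.96. PLK1, CDC20, CCNB1, PSRC1, AURKA, CKS2 and CCNA2 lay between -0.85 and -0.65, whereas CDK1, the mitotic kinase itself, HMMR and the kinetochore gene NUF2 lay at 0.96, 0.88 and 0.85. On replicates 1, 3 and 4 CDK1 had -0.83, -0.79 and -1.02. CDK1, HMMR and NUF2 were picked for mention after their values were seen. The dye coefficients of the members lay on both sides of 0, with a median of 0.02. For the dye 1 of the 60 passed, with a positive coefficient, as did 1.55% of all genes, and 0 passed with a negative one, against 0.807%. How far the dye accounts for the list's values on each array was not tested.

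**Figure D3:**
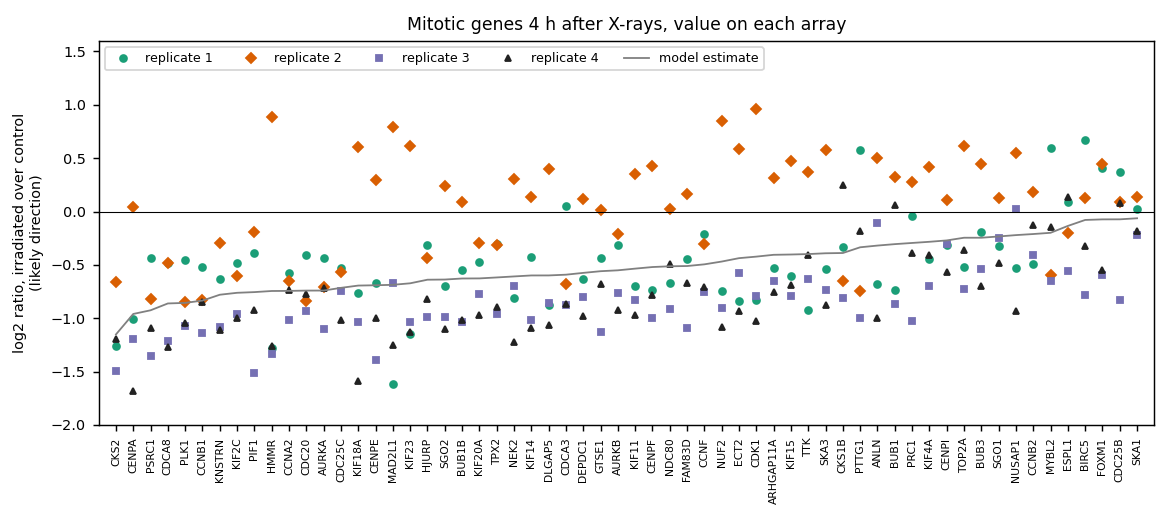
Log2 ratio (irradiated over control, likely direction, y axis) of the 60 mitotic G2/M genes on the 4 X-ray 4 h arrays (symbols), ordered by the model estimate (grey line). Replicates 1, 3 and 4 lie mostly between -1.5 and 0, while replicate 2 runs along with them for genes such as CKS2, PSRC1, PLK1 and CDC20 and above 0 for CDK1, HMMR and NUF2.

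Promoters of the 3 genes that fell are shown, as the only falls that passed with all X-ray arrays, with the 180 bases before the transcript start, from RefSeq, build GRCh38.p14, 5′ to 3′ on the strand of the gene. Capitals mark TTTGAA, the core of the CHR element, and CCAAT, the core of the NF-Y site, found on either strand, so that TTCAAA and ATTGG are the same motifs read on the other strand.
PSRC1 (chr1:109283146-109283325, minus strand): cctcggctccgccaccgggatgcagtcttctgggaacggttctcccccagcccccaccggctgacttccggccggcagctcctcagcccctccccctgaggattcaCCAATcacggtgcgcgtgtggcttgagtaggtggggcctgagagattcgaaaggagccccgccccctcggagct
CKS2 (chr9:89311015-89311194, plus strand): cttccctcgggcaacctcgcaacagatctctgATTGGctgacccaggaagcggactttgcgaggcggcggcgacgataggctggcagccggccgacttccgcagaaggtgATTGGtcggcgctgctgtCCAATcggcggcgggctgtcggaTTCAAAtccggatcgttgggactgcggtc
PLK1 (chr16:23678709-23678888, plus strand): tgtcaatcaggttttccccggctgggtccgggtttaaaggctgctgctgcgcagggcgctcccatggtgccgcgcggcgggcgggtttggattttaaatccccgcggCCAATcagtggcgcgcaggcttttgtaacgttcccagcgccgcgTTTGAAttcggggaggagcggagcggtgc

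In CKS2 and PLK1 the TTTGAA motif began 29 bases before the start. CCAAT began 73 bases before the start in PLK1 and 74 in PSRC1, and CKS2 had 3 copies. TTTGAA does not occur on either strand in the PSRC1 window, nor in those of CCNB1 and CCNA2, which hold CCAAT. Only this exact core was searched, so its absence does not show that these promoters lack a CHR element. Over windows of 250 bases before to 50 after the start, 35 of the 53 mitotic genes with a window held TTTGAA on either strand (66.0%) and 38 held CCAAT (71.7%), against 11.6% and 36.4% of the 14410 measured genes with a window. Both motifs together occurred in 28 of the 53 (52.8%) and in 4.88% of all windows. The 2 motifs can overlap by no more than 1 letter. Many promoters of mitotic genes are known to carry these elements, and the list was compiled with earlier results of these arrays known. The shares therefore describe its promoters and are not linked here to the ratios. Among the genes that rose, 30 had a window, of which 2 held TTTGAA (6.67%), 15 held CCAAT (50.0%) and 1 held the p53 decamer motif (3.33%), the last against 5.98% of all windows. A window of this length does not cover the first introns and distal sites where p53 is also known to bind.

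**Figure D4:**
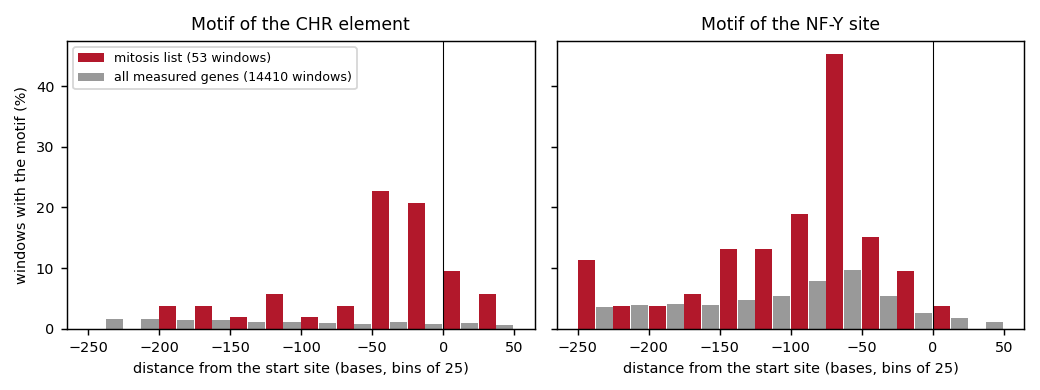
Share of promoter windows (y axis, %) with the CHR core (left panel) or the NF-Y core (right panel) in bins of 25 bases by distance from the transcript start (x axis, bases), for the 53 mitotic genes (red) and all 14410 measured genes (grey). The CHR core is found in 22.6% of mitotic windows at 50 to 25 bases before the start, against 1.03% of all windows, and the NF-Y core in 45.3% at 75 to 50 bases before it, against 9.72%.

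Without replicate 2, 19 genes rose (0.104%) and 4 fell (0.0218%) over the remaining 7 X-ray arrays. All 19 rises were among the 38, and 20 genes were shared in all, which is 48.8% of the 41 called with every array and 87.0% of the 23 called without replicate 2. At an unadjusted p under 0.05 there were 2505 genes (13.7%), 1925 of them negative and 580 positive. The genes that fell were PSRC1 (-1.07 ± 0.16, SE, n = 3, limma adjusted p = 0.037), RACGAP1 (-1.19 ± 0.18, 0.037), BORA (-1.02 ± 0.16, 0.037) and SGO2 (-0.96 ± 0.15, 0.045). RACGAP1 activates GTPase turnover at the cleavage furrow, BORA activates the kinase AURKA, and SGO2 guards centromeric cohesion. The 4 changes are model estimates adjusted for the dye, not plain means of the 3 arrays. RACGAP1 had -1.21, -1.04 and -1.05 on replicates 1, 3 and 4, against 0.11 on replicate 2. BORA had -0.60, -1.15 and -1.14, against 0.06, and SGO2 had -0.70, -0.99 and -1.10, against 0.24. None of the 4 falls passed with no dye term, nor when any further array of the 4 h group was left out (0 lower genes each time). In RACGAP1, BORA and SGO2 replicate 2 was the only array near or above 0, and with it none of them passed (adjusted p = 0.43, 0.35 and 0.54). The median of the 60 mitotic genes was -0.79 without replicate 2, and 2 of the 60 fell. CENPA, KNSTRN, CCNB1 and CCNA2 had adjusted p-values of 0.055 to 0.063 there and did not pass.

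DNA synthesis and repair genes lay nearer to 0 than the mitotic genes. Of the 49 G1/S and replication genes 0 passed, with a median of -0.09 (-0.24 without replicate 2), and their array medians were -0.03, 0.30, -0.45 and -0.30. E2F2, an activator of S phase genes and their member of smallest p, had -0.36, -0.57, -0.31 and -0.58 with a mean of -0.45 ± 0.14 (adjusted p = 0.57). Of the 40 double-strand break repair genes 0 passed, with a median of -0.10, and replicate 2 was again the positive array (0.34, against -0.34, -0.34 and -0.22 on replicates 1, 3 and 4). TIPIN, a fork protection protein, had the smallest p among them, at -0.56 ± 0.21 (0.96). The 36 histone genes had a median of -0.21, with 0 passing. A negative mean was found for 32 of them, and for 9118 of all 18334 genes. Their array medians of 0.39, -0.59, -0.40 and -0.17 did not keep one sign.

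Stress and signalling lists gave 0 or 1 gene that passed. The 26 genes of ATF4 and the unfolded protein response had a median of 0.10, and SESN2, which is also a p53 target, was the 1 that rose. Among 24 heat shock genes 0 passed, and the chaperone gene HSPA4L had 0.63, 0.75, 0.76 and 0.48 with a mean of 0.65 ± 0.15 (adjusted p = 0.13). All its arrays were positive, unlike the list, whose median was 0.04. The 34 immediate early genes had a median of 0.05 with FOSL2 at 0.45 ± 0.14 (0.62), the 26 NF-kB and cytokine genes a median of 0.03 with CCL20 at -0.41 ± 0.16 (1.00), and the 28 interferon genes a median of 0.01 with OAS3 at 0.35 ± 0.17 (1.00). NRF2 antioxidant genes (25, median 0.01), oxidative phosphorylation (43, 0.00), the proteasome (28, -0.04) and small nucleolar RNA hosts (14, -0.05) likewise had 0 genes that passed. The corresponding members of smallest p were PGD at 0.19 ± 0.15, SDHA at 0.29 ± 0.16, PSMA5 at -0.52 ± 0.19 and, as given above, SNHG7. RPL39, of the large ribosomal subunit, had the smallest p among ribosomal proteins, at -0.63 ± 0.20 (0.56).

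Of 23 fibroblast, endothelial and immune markers 0 passed, with a median of -0.01. A positive mean was found for 9 of them, and for 9216 of all 18334 genes. Without replicate 2, 20 of the 23 had a positive model estimate, as did 9544 of all 18334 genes, with a median of 0.09, and 0 passed. Those estimates are adjusted for the dye. On the single arrays 17, 15 and 8 of the 23 were positive on replicates 1, 3 and 4. Of 24 lung epithelial markers 0 passed, with a median of 0.06. ACTA2, smooth muscle actin, which the TGF-beta and mesenchymal list also holds, had 1.01, 0.64, 0.74 and 0.77 and a mean of 0.79 ± 0.16, just outside the threshold (adjusted p = 0.061). The other 26 of the 27 mesenchymal genes did not pass either, and their list had a median of 0.11. AGR2, a secretory disulfide isomerase of epithelia, had a mean of -0.45 ± 0.22 (1.00).

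Most genes that rose at 4 h were lower 1 h after X-rays. The median of the 38 was 0.98 at 4 h and 0.34 at 1 h. A positive mean at 1 h was found for 36 of them, and for 9309 of all 18334 genes. In 25 of the 38 every 4 h array exceeded every 1 h array, as in 0.693% of all genes. These genes were picked for high ratios at 4 h, so this comparison is a description. PHLDB3 had 1.36, 1.06, 1.22 and 1.38 at 4 h, against 0.57, -0.33, -0.08 and -0.47 at 1 h, a difference of 1.33 ± 0.24 (limma adjusted p = 0.93). INPP5D differed by 0.98 ± 0.21, SMIM10L2B by 0.97 ± 0.23, XPC by 0.88 ± 0.25 and DDB2 by 0.84 ± 0.21, each with 1 h values scattered around 0. GDF15 and 3 damage regulators were as high at 1 h, and their differences did not pass. GDF15 averaged 1.74 at 4 h and 1.76 at 1 h (difference -0.02 ± 0.26). PLK3 had 1.29 at 4 h and 1.59 at 1 h (-0.30 ± 0.24), PPM1D 1.07 and 1.32 (-0.25 ± 0.21), and GADD45A 1.12 and 1.53 (-0.42 ± 0.29). CDKN1A, GADD45A, GDF15, PLK3, PPM1D and SERTAD1 were the 6 genes that rose at 1 h (0.0327% of genes, 0 fell). For the difference between the times, 0 genes passed in either direction in limma, so no gene was shown to differ between 4 h and 1 h. An unadjusted p under 0.05 was found for 339 genes. These are fewer than the 747 (4.07%) of the 4 h response, so their share is below the threshold itself.

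The mitotic genes had lower means at 4 h than at 1 h. Their median was -0.54 at 4 h and -0.01 at 1 h. A lower mean at 4 h was seen in 59 of 60, and in 8809 of all 18334 genes. The list was compiled with earlier results of these arrays known, so this is a description. CKS2 had a mean of -1.15 at 4 h and -0.30 at 1 h, PLK1 -0.86 and -0.17, and CDC20 -0.74 and 0.05. The differences of -0.85 ± 0.30, -0.69 ± 0.22 and -0.79 ± 0.23 did not pass (adjusted p = 1.00 each).

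X-rays gave higher mean ratios than carbon ions for most of these genes at 4 h, at doses that no source used here gives. These genes were picked for high X-ray ratios at 4 h, so this too is a description. The 38 genes had a median of 0.98 after X-rays and 0.28 after C12, and in 16 of them every X-ray array exceeded every C12 array, as in 0.785% of all genes. LY6D, a surface protein of keratinocytes, had 0.99, 0.67, 0.69 and 0.82 after X-rays, against 0.04, -0.02, 0.16 and 0.12 after C12, a difference of 0.72 ± 0.14 (limma adjusted p = 0.19). FAS differed by 0.74 ± 0.15 (0.19) and DDB2 by 0.77 ± 0.15 (0.19). CDKN1A and BBC3 were close between the exposures, with differences of 0.33 ± 0.17 and 0.03 ± 0.16. For the mitotic list the median was -0.54 after X-rays and -0.10 after C12. The lower mean after X-rays was seen in 58 of 60, and in 9221 of all 18334 genes. For the difference, 0 genes passed in either direction in limma and 602 had an unadjusted p under 0.05. These too are fewer than the 747 (4.07%) of the X-ray 4 h response, a share below the threshold itself. On the C12 arrays the medians of the 61 p53 targets were -0.08, 0.50, -0.19 and 0.47, higher where the irradiated plate carried Cy5, and THSD1 had -0.20, 1.93, -0.53 and 1.24 in the same pattern. The part of the dye in these C12 values was not tested.

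**Figure D5:**
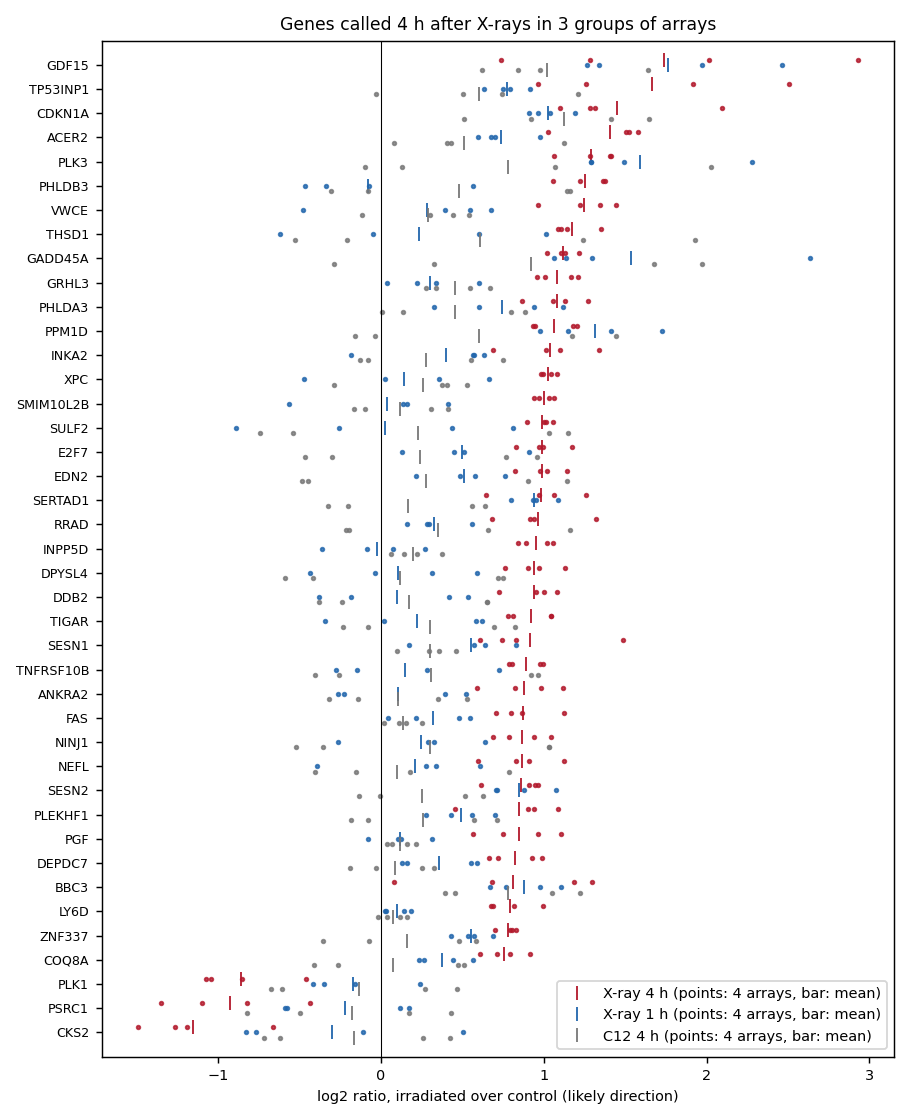
Log2 ratio (irradiated over control, likely direction, x axis) of the 38 genes that rose and the 3 that fell 4 h after X-rays, on each array (points) with the group mean (bar), for X-rays 4 h (red), X-rays 1 h (blue) and C12 4 h (grey). Genes were chosen for their X-ray 4 h values, and PLK3, GADD45A, PPM1D and GDF15 are as high or higher at 1 h.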

How the data were processed

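A549 cells were compared on two-colour Agilent arrays, 16 in all, each of an irradiated and a control plate. The authors deposited ratios of both dyes, taken here as log2, 1 per feature and array, for 45220 features. The tool limma is named, with no version, per the submitters' processing notes. The sources used here state neither how background was corrected and arrays normalized nor which log base and ratio direction were used. Base 2 is what limma writes by default. The SD over features was 0.414 on all arrays, a common spread, and precision is limited by the number of arrays.

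Signs followed the product of 2 dye codes from the labels, that of the array's irradiated plate and that of the other radiation quality's array with the same time and number, which turns replicates 1 and 2. The platform's annotation gave 31332 features 1 symbol, 31291 updated by Entrez identifier, and 93 features several. Features of a symbol were averaged into 18334 genes. Of the 13888 features left out of the gene tests, 5 rose and 0 fell when tested in the same way.

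Group means and 1 dye coefficient were fitted to the 8 X-ray arrays in R 4.3.3 using statmod 1.5.0 and limma 3.58.1 (5 residual and 9.40 prior degrees of freedom). The difference from C12 came from all 16 arrays with a dye coefficient per quality. P-values were Benjamini-Hochberg adjusted over all genes at 0.05. The procedure was also run on simulated arrays with independent noise. These held no array that deviates as replicate 2 does, so that run does not bear on this problem. Promoters came from RefSeq windows of GRCh38.p14.

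Members and gene lists were chosen with earlier results of these data known. Genes were named by rule: the 12 largest rises and falls that passed, with all arrays and without replicate 2, completed by the smallest p where fewer passed. Further came up to 4 called members of each list, or its member of smallest p, and MDM2, CDKN1A, GDF15, TP53INP1, VEGFA, HIF1A, GAPDH and ACTB. Whether equal replicate numbers pair the X-ray groups was checked by the correlation of their deviations from the group means, which was 0.05, -0.11, 0.41 and 0.36 for numbers 1 to 4, so the numbers were not treated as pairs. Alternatives covered the arrays and dye terms in the fit, array weights, centring, scaling, moderation, features, left-out replicates and the direction of the ratios.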

Additional observations from a re-analysis of the deposited data

Results flagged for a closer look

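Values far from the other 3 arrays of the X-ray 4 h group were found for 4 of the 76 named genes (5.26%) and for the array medians of 2 of 25 lists (8.0%, the pooled p53 list included), where the gap to the nearest array exceeded Dixon's critical share of the whole range, as chance gives for about 1 in 20 groups. ACER2 had 1.03 on replicate 1, below values of 1.505 to 1.58 on the others. HMGB2, a chromatin protein of proliferating cells, had 0.44 on replicate 2, against -0.93 to -0.84. RACGAP1 had 0.11 on replicate 2, against -1.21 to -1.04, and SESN2 had 0.62 on replicate 2, against 0.91 to 0.96. The median of the NRF2 antioxidant genes was -0.66 on replicate 3, against 0.25 to 0.29, and that of the oxidative phosphorylation genes was -0.67 on replicate 3, against 0.20 to 0.30. The causes of these separate values were not tested.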

How the results depend on the processing

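With all X-ray arrays 38 genes were higher and 3 lower. The counts of higher and lower genes were 64 and 19 with the 4 arrays of the group alone, 188 and 33 with all 16 arrays and a dye coefficient per quality, 96 and 8 with a shared one, 348 and 810 with array weights, 28 and 1 with no dye term and 41 and 5 with a dye coefficient for each X-ray group. They were 51 and 6 after centring on the median of all genes, 33 and 6 after centring on the housekeeping mean, 11 and 2 over genes with 2 or more features, 19 and 0 with trend and robust moderation, and 32 and 0 over features. With the dye code of replicate 2 turned, chosen after seeing the data, they were 26 and 6. This changed only the dye term of the model, and the ratios of replicate 2 kept their sign. As deposited and as turned by the labelled dye they were 0 and 0, and with inverse signs 3 and 38. Leaving out 1 array of the 4 h group gave 3 to 19 higher and 0 to 4 lower genes, and 1 array of the 1 h group 22 to 48 higher and 0 to 3 lower. The random replicate block left 38 and 3 (correlation -0.05), and with a replicate block, random or fixed, 0 genes differed between 4 h and 1 h. Without replicate 2, the 19 higher and 4 lower genes became 8 and 0 with no dye term, 0 and 0 with the 3 arrays alone and no dye term, and 0 to 3 and 0 with a further array left out. For 4 h against 1 h, all 16 arrays gave 2 and 1. The p53 median of 0.51 was 0.033 as deposited, -0.0081 by the labelled dye and -0.51 with inverse signs, and the mitotic median of -0.54 was 0.14 and 0.54 under the last 2. The TGF-beta median was -0.0026 under array weights. Over 1622 values of the 76 named genes, 1301 kept direction and side of the threshold, 227 were weaker, 76 stronger and 18 changed sign, all 18 in genes that did not pass. GAPDH was -0.043 with array weights, -0.0024 and -0.021 with median and housekeeping centring, -0.0059 after scaling, -0.057 to 0.047 with an array left out, and -0.31 with the turned code. VEGFA was -0.15, -0.0085, -0.027, -0.011, -0.14 to 0.11 and -0.057 in the same order. HIF1A was -0.58 to 0.066 with an array left out, and with the turned code ACTB was -0.060 and PGD -0.091. The causes were not tested.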
